A study of Mus musculus with 2 samples.

Results

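The lysosome and cathepsin genes are a set of 37 genes, taken by gene symbol from the 31055 gene features of a single-cell library of immune cells sorted from a mouse melanoma. All 37 symbols were found, each as 1 feature. They comprise 10 cathepsins and legumain, 12 other enzymes and cofactors of the lysosomal lumen, 7 proteins of the lysosomal membrane and 8 subunits or accessory proteins of the proton pump. They were taken by name with no threshold on a measured value, though with earlier results of these data known, and none of them served to define a cell class.

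Lysosomes are the acidic compartments in which cells break down material taken up from outside and their own worn components. A proton pump, the V-ATPase, acidifies the lumen, where proteases (the cathepsins), glycosidases, lipases and their cofactors work, and heavily glycosylated membrane proteins line and protect the organelle. In macrophages these enzymes digest engulfed cells, in dendritic cells their activity is held lower and shapes antigen processing, and in cytotoxic lymphocytes related compartments hold the lytic granules.

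Cells of B78ChOVA, a mouse melanoma line grown in culture, were injected under the skin of the flank in a volume of 50 µl, and tumours were harvested after 16 days, cut live into sections of about 160 µm, barcoded by region with ZipSeq and dissociated before immune cells were sorted. ZipSeq places DNA barcodes, here ZC1, ZC2 and ZC3, on the cells of regions chosen under the microscope. The 2 samples are the gene expression and spatial barcode (ADT) libraries of the same cells, counted in 1 matrix, so every group below is a set of cells of 1 library. The number of tumours, the strain, age and sex of the mice and the region behind each barcode are not stated in the sources used here. The tumour is a transplanted line with no untreated or tumour-free group beside it.

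The matrix held 117528298 gene UMIs, the counted single mRNA molecules, and 4236 cells with a median of 23132 UMIs were kept. Classes were set by marker genes and are to be read as macrophage-like, monocyte-like and so on. Cells with C1q genes above a limit and without Ly6c2 and Ccr2 were called macrophages (1992 cells), cells with Ly6c2 and Ccr2 below the C1q limit monocytes (493), and cells with both intermediates (557). There were also 530 T cells, 220 dendritic cells (DCs: 134 cDC2, 45 cDC1 and 41 migratory DCs), 45 melanoma cells, 31 nonclassical monocytes and 27 NK cells. Macrophage genes outside the gates (Mrc1, Ms4a7, Trem2, Adgre1, Cx3cr1 and Fcgr4) summed to 3511 CPM in macrophages, 2403 in intermediates and 778 in monocytes, and monocyte genes outside the gates to 63.8, 424 and 4597 CPM. The borders are limits on a continuous range: 57 of 3042 cells lay near the C1q limit and 643 of 2549 near the Ly6c2 and Ccr2 limit. Levels are CPM, the UMIs of a gene summed over the cells of a class and scaled to 1000000. Ratios carry exact 95% intervals in parentheses that cover counting error only. With 1 library no test between classes was possible, so genes are counted as higher or lower where the ratio passed 1.5-fold.

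Many lysosomal genes are known targets of TFEB and its relatives MITF, TFE3 and TFEC, which bind short E-box motifs near the start site, and promoter sequence was therefore set beside the levels. In RefSeq promoters of GRCm38.p6, each from 250 bases before to 50 after a start, 30 of the 37 members had an entry. The palindrome TCACGTGA stood in 5 of the 30, against 1.12% of all 27025 genes with a promoter (0.974% of 32851 promoters), and TCACATGA, read on either strand, stood in 5 others, against 1.15% of genes. The shorter core CACGTG, which TCACGTGA contains, was found in 10 of the 30 and in 8.09% of all genes, and the PU.1-type motif GAGGAAGT in 3 of 30 and 3.69%. The longer palindrome GTCACGTGAC, which contains TCACGTGA, was found in 0 of the 30 and in 0.37% of all genes. The windows below are shown because they hold one or the other motif in members whose levels are described next. Capitals mark the motif, and each sequence is read 5′ to 3′ on the strand of its gene.
Ctsd, chr7:142387909-142387936, minus strand: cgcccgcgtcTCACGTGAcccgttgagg
Ctsa, chr2:164833750-164833777, plus strand: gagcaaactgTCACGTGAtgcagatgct
Ctsa, chr2:164833767-164833794, plus strand: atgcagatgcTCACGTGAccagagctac
Mcoln1, chr8:3500463-3500490, plus strand: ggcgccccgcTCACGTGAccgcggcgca
Grn, chr11:102430286-102430313, plus strand: gattctctaaTCACATGAtccctagaaa
Tpp1, chr7:105752202-105752229, minus strand: atgtgacttaTCACATGActacagatca
Ctsa holds the palindrome in 2 copies on either side of its start site, which in part overlap in the windows shown. The other members with either motif were Atp6v0e, Atp6v1a, Atp6v0c, Ctss and Ppt1. A match describes the letters in the window and no binding was measured.

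Macrophages spent the largest share of their mRNA on the module. The 37 genes summed to 2.76% of all UMIs in macrophages, 2.61% in intermediates, 1.98% in monocytes, 1.16% in DCs, 0.55% in melanoma cells, 0.54% in T cells and 0.31% in NK cells. The cathepsins made up most of the difference between macrophages and monocytes, at 15042 CPM in macrophages, 13478 in intermediates, 8927 in monocytes, 4970 in cDC2, 2069 in cDC1 and 2278 in T cells. The median T cell held 1350 CPM and the median cDC1 1744, so by the median cell the order of these last classes was the other way round. The other lumenal genes stood at 7610 CPM in macrophages, 8219 in intermediates, 6966 in monocytes, 6634 in cDC1 and 6507 in nonclassical monocytes, and lower in cDC2 (4620) and migratory DCs (3350). Pump genes summed to 1142 CPM in macrophages, 1106 in intermediates and 1070 in monocytes. Of the 37 members, 19 were highest in macrophages, 7 in nonclassical monocytes, 3 in intermediates, 2 each in monocytes, cDC1 and melanoma cells, and 1 each in cDC2 and migratory DCs. For several of them the counting intervals of the highest and the second class overlapped. Of those highest in nonclassical monocytes these were Psap, Lipa, Mcoln1, Atp6v1b2 and Atp6ap1. Of those highest in macrophages they were Ctsb, Gusb, Glb1, Npc1 and Atp6v1a. In the other classes they were Npc2, Asah1, Gaa, Atp6v0c and Atp6v0e.

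**Figure D1:**
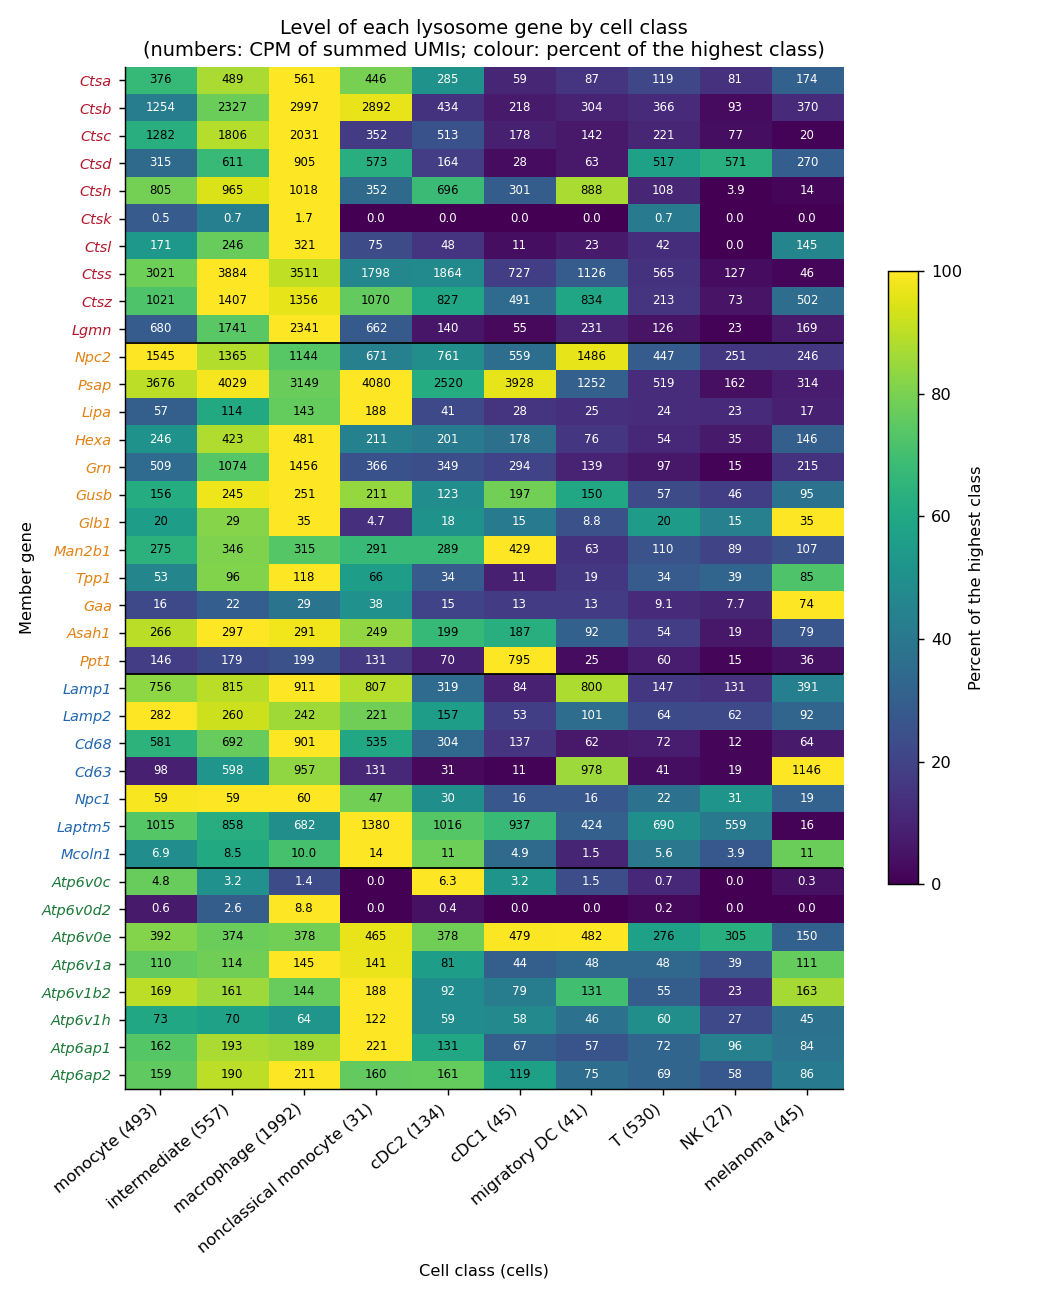
Level of each member (rows, grouped by role) in each cell class (columns, with the number of cells); numbers are CPM of summed UMIs and colour is the percent of the highest class for that gene. Most rows peak in the macrophage column, while Ppt1 peaks in cDC1, Gaa and Cd63 in melanoma cells and Laptm5 in nonclassical monocytes.

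The first comparison sets the monocytes beside the macrophages that carry C1q. Of the 37 members 16 were higher in macrophages and 1 was lower. Of all 11746 genes compared, 28.2% were higher and 16.2% lower. The members' median log2 ratio was 0.45, against 0.15 over all genes. Relative to that shift of all genes, 13 members were higher and 2 lower, beside 22.8% and 20.5% of all genes. Of the 17 members past 1.5-fold, 14 stayed past it in every alternative that gave a value, and Ctsc, Gusb and Cd68 did not.

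Among the proteases with ample UMIs, legumain, cathepsin D and cathepsin B differed most between monocytes and macrophages. Lgmn, the asparaginyl endopeptidase that also trims other cathepsins to their mature form, stood at 680 CPM in monocytes, 1741 in intermediates and 2341 in macrophages, a ratio of 3.44 (3.34 to 3.55) between the outer classes. Ctsd, the aspartic protease whose promoter window is printed above, stood at 315, 611 and 905 CPM, with a ratio of 2.88 (2.75 to 3.01). Ctsb, a cysteine protease with endopeptidase and dipeptidase activity, stood at 1254, 2327 and 2997 CPM, with a ratio of 2.39 (2.34 to 2.44). For each of these genes the counting intervals of the 3 classes were apart. The middle 50% of cells held 113 to 772 CPM of Lgmn in monocytes and 1747 to 2973 in macrophages, and 706 to 1469 and 2007 to 3794 CPM of Ctsb, so these ranges did not overlap. Median depth was 11076 UMIs in monocytes and 31658 in macrophages, and its part in these ranges was not tested. Ctsl, an endopeptidase, was 1.87-fold higher (1.76 to 1.99), and Ctsc, the dipeptidyl peptidase that activates granule serine proteases, was 1.58-fold higher (1.55 to 1.62). The remaining cathepsins were within 1.5-fold, apart from Ctsk. Ctss, the protease best known for cleaving the invariant chain of MHC class II, was the flattest, at 3021 CPM in monocytes and 3511 in macrophages, with its highest level of 3884 in intermediates. Ctsz, a carboxypeptidase, was also highest in intermediates, at 1407 CPM against 1356 in macrophages and 1021 in monocytes. Ctsa, a carboxypeptidase that also stabilises beta-galactosidase, had a ratio of 1.49 and Ctsh, an aminopeptidase, of 1.26. Ctsk, the collagenase of osteoclasts, rested on 111 UMIs in macrophages and 3 in monocytes, a ratio of 3.47 with an interval from 1.16 to 17.1.

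Of the 12 other lumenal genes 7 were higher in macrophages, and the lipid cofactors Psap and Npc2 were the 2 with a ratio below 1. Grn, the precursor of granulins, stood at 509 CPM in monocytes and 1456 in macrophages (ratio 2.86, 2.76 to 2.96). Lipa, the acid lipase that frees cholesterol from lipoproteins, stood at 56.7 and 143 CPM (2.52, 2.27 to 2.82). Tpp1, a tripeptidyl peptidase, was 2.20-fold and Hexa, a subunit of beta-hexosaminidase, 1.95-fold higher in macrophages. Glb1 (beta-galactosidase), Gaa (acid alpha-glucosidase) and Gusb (beta-glucuronidase) had ratios of 1.79, 1.74 and 1.61. Man2b1, a mannosidase, Asah1, the acid ceramidase, and Ppt1, a thioesterase, had ratios of 1.15, 1.09 and 1.36. In contrast, Psap, the precursor of the saposins that present lipids to their hydrolases, stood at 3676 CPM in monocytes, 4029 in intermediates and 3149 in macrophages, a ratio of 0.857. Npc2, the soluble carrier that hands cholesterol to the membrane protein Npc1, stood at 1545, 1365 and 1144 CPM, a ratio of 0.740 (0.725 to 0.756).

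Of the 7 membrane proteins 2 were higher in macrophages, Cd63 by far and Cd68 just past 1.5-fold. Cd63, a tetraspanin of late endosomes, lysosomes and secreted vesicles, stood at 98.5 CPM in monocytes, 598 in intermediates and 957 in macrophages, a ratio of 9.71 (8.97 to 10.5). The cell in the middle of the monocyte class held no Cd63 UMI, and the one in the middle of the macrophage class held 918 CPM. A gene at a low level is missed more often at the lower depth of monocytes, whose median was 11076 UMIs. Cd68, the sialomucin often used to mark macrophages, was 1.55-fold higher (1.5 to 1.6). Lamp1, an abundant membrane glycoprotein, stood at 756 CPM in monocytes and 911 in macrophages, and its relative Lamp2 at 282 and 242 CPM. Npc1, which moves cholesterol out of the lysosome, was at 58.9 and 59.6 CPM. Mcoln1, a cation channel, had a ratio of 1.45 on 43 UMIs in monocytes. Laptm5, a transmembrane protein of blood cells that targets receptors for degradation, was the lowest of the 7, at 1015 CPM in monocytes, 858 in intermediates and 682 in macrophages (0.672, 0.655 to 0.690).

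Among the pump genes only Atp6v0d2 and Atp6v0c passed 1.5-fold, in opposite directions and on few UMIs. Atp6v0d2, the isoform of subunit d found in osteoclasts and some macrophages, had 584 UMIs in macrophages and 4 in monocytes (8.78 against 0.64 CPM, ratio 13.7, 5.33 to 50.5). Both levels were below its level in droplets without a cell. Atp6v0c, which forms the proton-carrying ring of the pump, had 95 UMIs in macrophages and 30 in monocytes (ratio 0.297). Atp6v0c never passed 6.26 CPM in any class although the pump cannot be built without its product, and its values are treated as uncertain. The catalytic subunit Atp6v1a had a ratio of 1.31, and Atp6v1b2 and Atp6v1h, which sit beside it in the pump's soluble part, had ratios of 0.856 and 0.878. Atp6v0e, a small membrane subunit, had a ratio of 0.965. The accessory proteins Atp6ap1 and Atp6ap2 had ratios of 1.17 and 1.32. By role, the median log2 ratios were 0.78 for cathepsins, 0.74 for other lumenal genes, 0.27 for membrane proteins and 0.087 for the pump.

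The enzymes and the pump thus stood apart in these counts, and a link of the promoter motifs to that division was not tested. The 10 members with TCACGTGA or TCACATGA had a median macrophage to monocyte ratio of 1.40, with 3 of them higher, and the 20 members with neither had a median of 1.57, with 11 higher. Ctsd, Grn and Tpp1, printed above, were the 3. The 20 members include Ctsl, Gaa, Glb1, Lamp1 and Lgmn, which hold the shorter core CACGTG. The 7 members without a promoter entry are in neither set.

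Intermediates lay between monocytes and macrophages for most of the enzymes. In 18 of 37 members the 3 classes were ordered from monocyte up to macrophage with neighbouring intervals apart, and in 3 (Npc2, Lamp2 and Laptm5) from monocyte down. Ctsb, Ctsd, Lgmn, Lipa, Hexa, Grn, Gusb, Tpp1, Cd63 and Atp6v0d2 were higher in intermediates than in monocytes, and Atp6v0c was lower. These were 10 higher and 1 lower of 36 compared, beside 19.5% and 9.9% of all genes, with a median log2 ratio of 0.32 against 0.11. Divided by the median of all genes, 9 were higher and 1 lower, beside 16.0% and 12.9%. From intermediates to macrophages 3 were higher (Cd63 at 1.60, Atp6v0d2 at 3.39 and Ctsk at 2.32) and 1 was lower (Atp6v0c) of 37, beside 9.55% and 8.23% of all genes. Over the 16 higher members, the intermediate class had covered a median of 71.0% of the log2 step from monocyte to macrophage: 94.9% for Gusb, 79.4% for Cd63 and 76.1% for Lgmn, but 39.8% for Cd68.

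**Figure D2:**
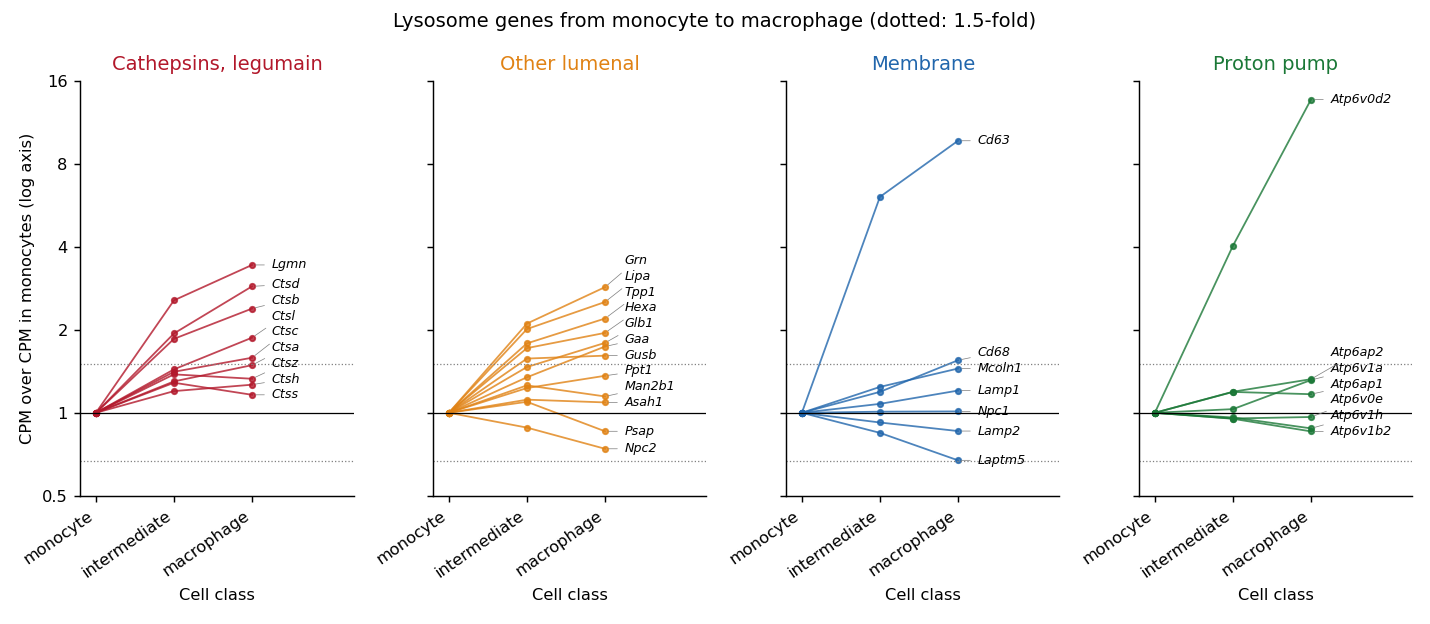
CPM of each member in monocytes, intermediates and macrophages over its CPM in monocytes (log axis), in 4 panels by role; dotted lines mark 1.5-fold, and Ctsk and Atp6v0c are left out for low counts. Legumain, Cd63 and Atp6v0d2 climb most in their panels, and the other pump subunits stay between the dotted lines.

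Lysosomal genes outside the module were counted by the same roles, beside the 28.2% and 16.2% of all genes that were higher and lower in macrophages than in monocytes. Of 26 further lumenal enzymes 12 were higher and 2 were lower. Acp5, the tartrate-resistant phosphatase, stood at 255.7 against 29.9 CPM (ratio 8.54), and Naglu, a glucosaminidase of heparan sulphate breakdown, had a ratio of 3.44. Gm2a, the activator protein for ganglioside breakdown, and Ids, a sulphatase, were lower, at 0.421 and 0.658. Gm2a thus stood with Psap and Npc2, the lipid-binding cofactors of the module, none of which was higher in macrophages. Among the further cathepsins, Ctsf was higher, at 47.2 on 503 UMIs against 1 (8.44 to 1869), and Ctso at 1.64. Ctsw, which stood at 308 CPM in T cells, had 2.84 CPM in macrophages and 0.64 in monocytes beside 20.7 in free RNA, the RNA of droplets without a cell, and is not read as expression in either. The cysteine protease inhibitors Cst3, Cstb and Cst7, which act on several of these cathepsins, had ratios of 0.876, 0.824 and 0.763. Cst7 stood at 3.91 CPM in macrophages and 5.12 in monocytes, both below its 29.5 CPM in free RNA, and its ratio is treated as uncertain.

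Of 12 further membrane proteins 1 was higher and 3 were lower, with a median log2 ratio of -0.080 where that of the module's 7 was 0.27, and with Laptm4b at 1.64 and Laptm4a at 1.32 at the upper end and Cd164 at 0.548 and Slc38a9 at 0.608 at the lower. Laptm4b, the 1 higher gene, stood at 4.98 CPM in macrophages and 3.04 in monocytes. Both levels are below its 11.1 CPM in free RNA, and its ratio is treated as uncertain. Of 10 further pump subunits 1 was higher (Atp6v1c1 at 1.63, then Atp6v1d at 1.40), and Atp6v0a2 at 0.744 and Atp6v1e1 at 0.756 were the lowest. In the mannose 6-phosphate pathway, which delivers new enzymes to the lysosome, Igf2r (1.77) and Gnptg (1.60) were higher, M6pr was at 1.24 and Sort1, an alternative sorting receptor, was lower at 0.351. Gnptg stood at 17.2 CPM in macrophages and 10.7 in monocytes, both below its 19.9 CPM in free RNA. Its ratio is treated as uncertain too. Of the TFEB family none was higher: Mitf was at 1.03, Tfe3 at 0.884, Tfeb at 0.708 and Tfec, lower, at 0.445. None of 8 genes that anchor the growth regulator mTORC1 to the lysosome passed 1.5-fold (Rragc 1.39, Lamtor3 1.33, Lamtor4 0.902 and Rraga 0.796).

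DCs held less of every cathepsin of the module than macrophages. Of 37 members 28 were lower in DCs and 1 was higher, beside 27% and 16.1% of the 11353 genes compared. The median log2 ratio was -1.14, against -0.16 over all genes, and divided by that shift 24 members were lower and 1 higher, beside 21.8% and 20.3% of genes. All 10 cathepsins were lower. Lgmn stood at 131 CPM in DCs (ratio to macrophages 0.0557, 0.0513 to 0.0605), Ctsb at 354 (0.118) and Ctsd at 111 (0.123). Ctsl, Ctsc and Ctsa had ratios of 0.107, 0.179 and 0.343. Ctss, Ctsz and Ctsh were nearer to macrophages, with ratios of 0.410, 0.542 and 0.605. Ctsk had no UMI in DCs, which allows a ratio of up to 0.402.

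The 2 lipid cofactors of the module were within 1.5-fold of macrophages in DCs, Psap with a ratio of 0.862 and Npc2 of 0.713. Gm2a, the cofactor outside the module, was higher in DCs, at 835 against 287 CPM (2.91). Man2b1 (0.929), Ppt1 (1.32), Laptm5 (1.33), Mcoln1 (0.786), Atp6v0e (1.11) and Atp6v1h (0.893) were also within 1.5-fold. Among the enzymes below that range were Grn (0.207), Tpp1 (0.213), Lipa (0.247), Hexa (0.365), Glb1 (0.443), Gaa (0.491), Gusb (0.588) and Asah1 (0.618). Of the membrane proteins, Cd63 had a ratio of 0.178, Cd68 of 0.246, Lamp1 of 0.360, Npc1 of 0.402 and Lamp2 of 0.496. In the pump, Atp6v0d2 had 1 UMI (0.0255, 0.000644 to 0.143), and Atp6v1a (0.453), Atp6ap1 (0.539), Atp6ap2 (0.648) and Atp6v1b2 (0.651) were lower. Atp6v0c was the 1 gene that was higher, on 21 UMIs.

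The DC classes differed from each other in many members, among them Ppt1 and Cd63. In cDC1 18 of 34 members were lower than in cDC2 and 3 higher, with a median log2 ratio of -0.81. In migratory DCs 21 of 33 were lower than in cDC2 and 4 higher, with a median of -0.82. The share of all genes was not counted for these 2 pairs. Ppt1, the thioesterase that strips fatty acids from proteins, stood at 795 CPM in cDC1, 70.0 in cDC2 and 25.0 in migratory DCs, so that cDC1 exceeded cDC2 by 11.4-fold (9.67 to 13.4). In the middle 50% of cDC1 it lay between 440 and 1085 CPM, so its level did not rest on few cells. cDC1 also held more Psap than cDC2 (3928 against 2520 CPM, 1.56) and more Gusb (1.61), but less Ctsd (28.4 against 164 CPM, 0.174), Ctsa (0.208) and Lamp1 (0.262). Migratory DCs, which carry Ccr7 and are named for leaving tissue to lymph nodes, held 978 CPM of Cd63 against 30.9 in cDC2, a ratio of 31.6 (25.0 to 40.5) and a level close to that of macrophages. They also held more Lamp1 (2.51), Npc2 (1.95) and Lgmn (1.65) than cDC2, and less Cd68 (0.203), Man2b1 (0.219) and Ctsc (0.277). Nonclassical monocytes, with 31 cells, held 2892 CPM of Ctsb, 2.31-fold the level of the other monocytes with an interval that reached the macrophage level, and 188 CPM of Lipa (3.31, 2.33 to 4.60), but only 352 CPM of Ctsc (0.275).

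T cells held the module at low levels, with Ctsd, Laptm5 and some pump subunits apart. Of 37 members 34 were lower in T cells than in macrophages and none was higher, beside 26.5% and 25.7% of 11863 genes, with a median log2 ratio of -1.92 against 0.037. Laptm5 stood at 690 CPM against 682 in macrophages (ratio 1.01, 0.979 to 1.04), Atp6v1h at 60.2 against 63.7 (0.945) and Atp6v0e at 276 against 378 (0.730). Cd63 was lowest among genes with ample UMIs, at 40.6 CPM (0.0425), then Lgmn (0.0540), Grn (0.0664) and Cd68 (0.0795).

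Part of a low level in a lymphocyte can come from free RNA in the suspension, and droplets without a cell gave its makeup. The module was 1.93% of UMIs in 68497 barcodes of 10 to 100 UMIs. In T cells the 6 macrophage genes outside the gates stood at 5.68% to 22.9% of their free RNA level, and 14 of the 37 members lay at or below that upper value, among them Cd63 (5.37%), Lgmn (8.49%), Grn (12.1%) and Cd68 (12.9%). The upper value is that of Cx3cr1, and the other macrophage genes lay at 5.68% to 8.97%. The 14 levels are read as background, but for members such as Grn and Cd68 this reading rests on Cx3cr1. Asah1 (23.4%), Ctsk (23.9%), Psap (25.9%) and Lipa (26.1%) lay so close above the value of Cx3cr1 that they are not read as expression either. In NK cells the same macrophage genes reached 2.49% and 29 members lay above it, with Cd63 nearest at 2.54%. T cells had a median of 6402 UMIs, NK cells 6150 and macrophages 31658.

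Among the cathepsins of the module, Ctsd came nearest to its free RNA level in lymphocytes. Outside the module 2 cathepsins passed theirs. Ctsw stood at 308 CPM in T cells and 771 in NK cells against 20.7 in free RNA, and Ctso at 28.9 and 30.9 against 23.1. Ctsd stood at 517 CPM in T cells and 571 in NK cells (483 to 671), which is 81.9% and 90.4% of its free RNA level. Ctsb stood at 366 and 92.6 CPM, or 18.9% and 4.79%. In CD8 T cells, gated on Cd8a and Cd8b1 (231 cells), Ctsd stood at 587 CPM, and in regulatory T cells, gated on Foxp3 (75 cells), at 240 CPM, a ratio of 2.45 (2.12 to 2.84). The middle 50% of CD8 T cells held 352 to 786 CPM and that of regulatory T cells 88.0 to 398. For Npc2 the CD8 to regulatory ratio was 0.585 (0.528 to 0.650).

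**Figure D3:**
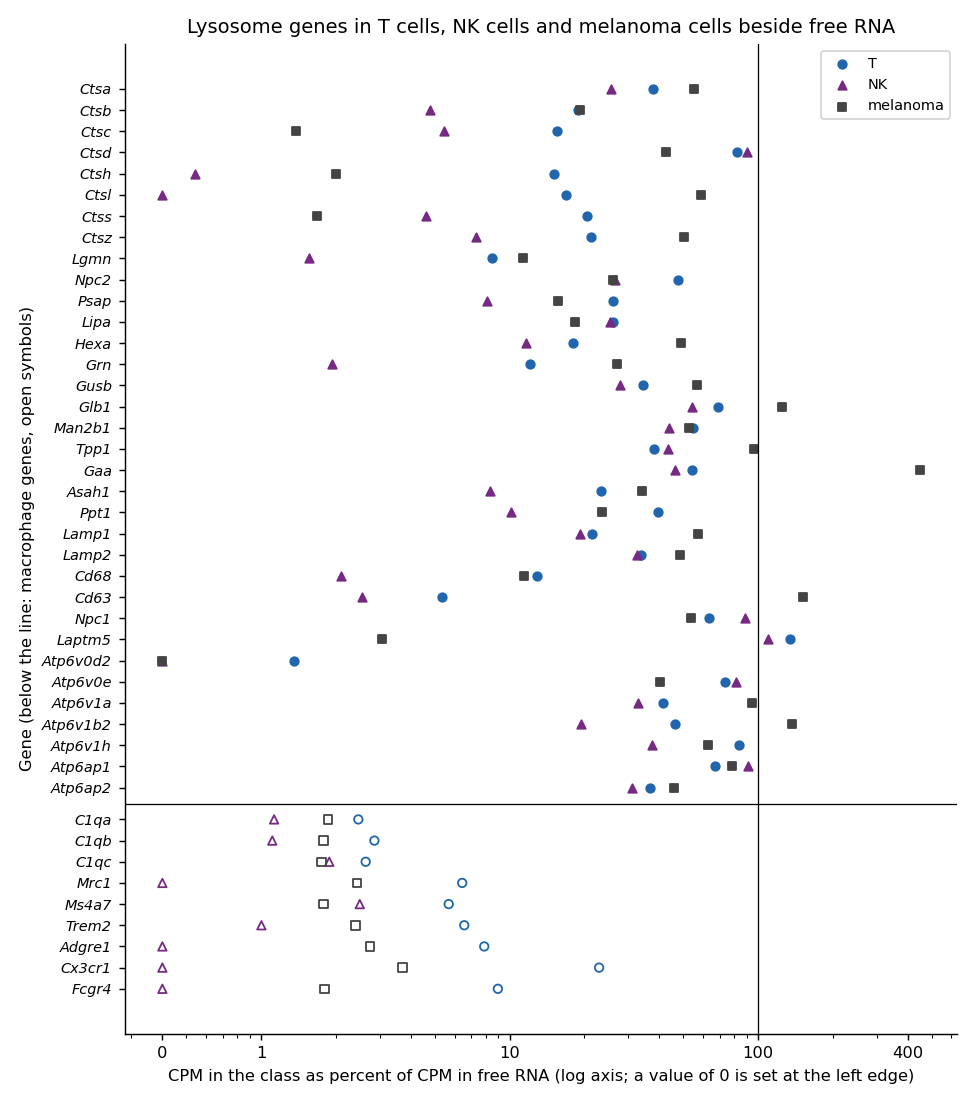
CPM of each member in T, NK and melanoma cells as percent of its CPM in free RNA (log axis, values of 0 at the left edge); open symbols below the line are macrophage genes, and Ctsk, Atp6v0c and Mcoln1 are left out for low counts. Ctsd stands far right of Ctsb in T and NK cells, and Laptm5 lies past 100% in both, while Gaa and Cd63 pass 100% in melanoma cells.

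The 45 melanoma cells that had passed the immune sort held the mRNAs of the module in another makeup. Of 37 members 29 were lower than in macrophages and 1 was higher, beside 23.5% and 39.1% of 11393 genes, with a median log2 ratio of -1.67 against 0.30. Divided by that shift, 32 were lower and 1 higher, beside 30.3% and 28.7% of genes. Their median depth was 78574 UMIs. With all cells thinned to 1000 UMIs, 29 members could be compared. Of these 26 were lower and none higher, beside 37.4% and 20.9% of genes. Gaa, the enzyme that breaks down glycogen in the lysosome, was the 1 higher gene at full depth, at 74.4 CPM against 28.7 (2.59, 2.27 to 2.95). Gaa was not among the 29 members compared after thinning, and it stayed higher in all 12 alternatives that gave a value. Cd63, first described as a melanoma antigen, stood at 1146 CPM against 957 (1.20), the highest of any class, and 879 to 1287 CPM in the middle 50% of melanoma cells.

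Ctsc, Ctss, Ctsh and the membrane protein Laptm5 were near background in melanoma cells. Ctsc stood at 19.6 CPM (ratio 0.00964), Ctss at 46.4 (0.0132), Ctsh at 14.3 (0.0140) and Laptm5 at 15.7 (0.0230), each at 1.38% to 3.06% of its free RNA level, where the macrophage genes lay at 1.78% to 3.70%. In contrast, 6 other proteases lay above that range: Ctsz at 502 CPM (0.370), Ctsb at 370 (0.124), Ctsd at 270 (0.298), Ctsa at 174 (0.310), Lgmn at 169 (0.0723) and Ctsl at 145 (0.454). Glb1 (0.998), Tpp1 (0.726), Mcoln1 (1.10), Atp6v1b2 (1.13), Atp6v1a (0.763) and Atp6v1h (0.712) were within 1.5-fold of macrophages. Psap stood at 314 CPM (0.0996) and Cd68 at 63.5 (0.0705). Atp6v0d2 had no UMI, and its ratio of 0.0956 comes from putting melanoma cells at 3 counts.

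Within macrophages the module did not move as a block. Clustering of the 1992 cells without the lysosome genes gave 11 clusters of 37 to 340 cells, named here by number and leading genes. Over the 10 clusters of at least 50 cells, 15 of the members differed by at least 2-fold between the highest and the lowest cluster, among them Ctsk, Atp6v0c and Atp6v0d2 on few UMIs. Of the 33 members from 20 CPM upward 12 did, beside 40.5% of 5335 genes at that level, which include the genes used for clustering, so the share was near that of all genes. Cathepsins summed to 18090 CPM in cluster 1 (Gpr34, Pf4, Igf1), 18021 in cluster 8 (Retnla, Fn1, Ear2) and 17575 in cluster 3 (Hspa1a, Mmp12, Vegfa), and to 13220 and 12170 CPM in clusters 2 and 4, whose leading genes (Rrm2, Cdc20, Cenpf) belong to the cell cycle. Clusters 2 and 4 held 3787 and 3506 CPM of 10 cell cycle genes against 228 in cluster 1, and their cells had medians of 42316 and 40594 UMIs against 24758. Cluster 3 held 4758 CPM of 10 genes induced by tissue dissociation, the most of any cluster, against 2425 in cluster 1. The part of cell cycle, depth and dissociation in these levels was not tested.

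Each of the 3 clusters rich in cathepsins had its own profile. Cluster 8 was highest in Ctsd (1681 CPM, against 579 in cluster 6), Psap (5484, against 2319 in cluster 6), Ctsl (541, against 236 in cluster 4), Ctss (5247) and Atp6v0d2 (58.1 CPM, against none in cluster 6). Cluster 3 was highest in Ctsb (4763 CPM, against 2165 in cluster 4), Lgmn (3087), Npc2 (1721) and the pump subunit Atp6v1a (360, against 99.0 in cluster 6). The same cluster 3 was lowest in Ctsc (1171 CPM, against 2454 in cluster 7), Gusb (97.5, against 298 in cluster 1) and Man2b1 (185, against 480 in cluster 1). Cluster 1 was highest in the glycosidases Gusb, Man2b1, Hexa and Glb1 and in Cd63 and Lamp1. Cluster 6, led by Klra17 and Klrb1b, held the most Ctsh (1346 CPM) and Grn (1668) beside the least Ctsd and Psap. Atp6v0e, Atp6v1h and Atp6ap2 differed by less than 1.3-fold over the clusters. Cluster 10 held T cell genes (480 CPM of 6 marker genes) and cluster 11 had a median of 2310 UMIs.

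**Figure D4:**
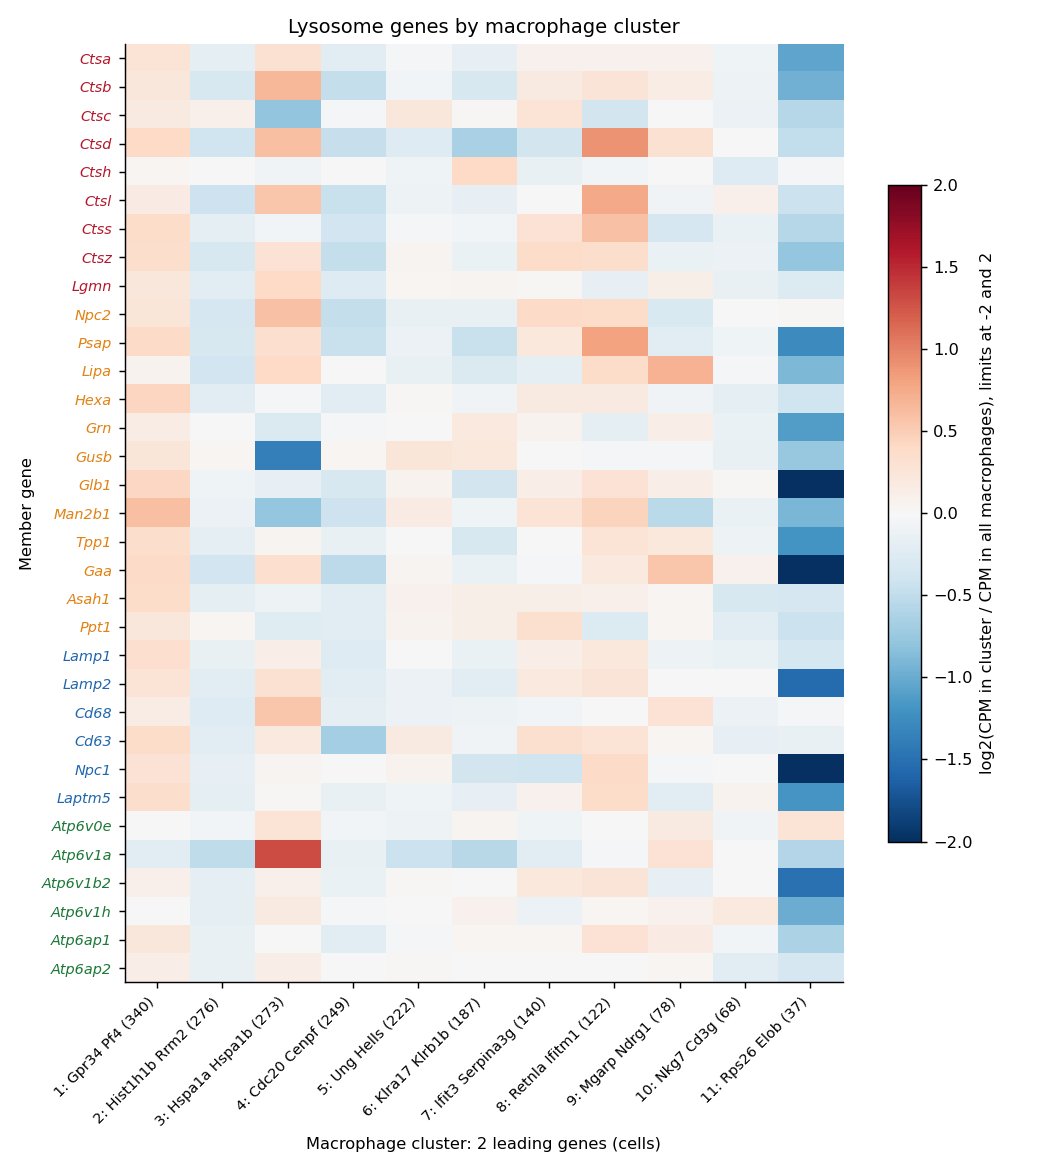
log2 of CPM in each macrophage cluster over CPM in all macrophages, by member (rows; Ctsk, Mcoln1, Atp6v0c and Atp6v0d2 are left out for low counts), with cluster numbers, 2 leading genes and cells below. Cluster 3 is red in Ctsb and Atp6v1a and blue in Gusb, Ctsc and Man2b1, and cluster 8 is red in Ctsd, Ctsl and Psap.

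From cell to cell the groups of the module still went together. With 1898 macrophages thinned to 10000 UMIs each, the cathepsin sum was 150 UMIs in the median cell and 104 and 210 at the 10th and 90th percentiles. Its Spearman correlation was 0.635 with the sum of membrane and pump genes, 0.689 with the other lumenal genes, 0.324 with C1q, 0.105 with the dissociation genes and -0.478 with the cell cycle genes. At 5000 UMIs the first of these was 0.554, over 1942 cells. At 10000 UMIs the sum of membrane and pump genes had a correlation of -0.450 with the cell cycle genes. The part of cell cycle in the correlations between groups was not tested. These are descriptions across cells of 1 library, which share a total fixed by thinning. Among 276 pairs of 24 well-counted members, Psap with Ctss (0.525), Psap with Ctsz (0.525) and Lgmn with Ctsb (0.485) were highest. The lowest were Cd68 with Ctsc (-0.173), Gusb with Npc2 (-0.150) and Ctsd with Ctsc (-0.149). The variance of thinned counts was 9.68 times the mean for Psap, 8.67 for Ctsd, 8.21 for Ctsb and 8.05 for Ctss, all with means above 9 UMIs, but 1.05 for Npc1 and 1.00 for Mcoln1, whose means were 0.576 and 0.0917 UMIs.

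The last comparison sets the macrophages of the spatial barcodes side by side. A cell took a barcode whose share of the cell's spatial UMIs, relative to droplets without a cell, was at least 1.5 times the next. This gave 156 ZC1, 175 ZC2 and 618 ZC3 macrophages. A rule on raw counts, of at least 10 and 2 times the next, gave 3 ZC1, 6 ZC2 and 1289 ZC3 macrophages. For nearly all ZC1 and ZC2 macrophages the label thus rests on the relative share, and not on a barcode that dominated the raw counts. Between ZC1 and ZC3, 3 of 36 members were higher (Psap, Atp6v0d2 and Atp6v0c) and 0 lower, beside 6.03% and 4.88% of genes. The median log2 ratio was 0.18 against -0.039 over all genes, and 29 of the 36 ratios were above 1, beside 43.4% of all genes. Between ZC2 and ZC3, 2 of 37 were higher (Atp6v0d2 and Ctsk) and 1 lower (Atp6v0c), beside 6.12% and 4.43%, with a median of 0.12 against -0.0038. Between ZC1 and ZC2, 1 of 36 was higher (Atp6v0d2) and 1 lower (Ctsk), beside 3.05% and 3.54%. Without Ctsk and Atp6v0c, which rest on few UMIs, 2 were higher between ZC1 and ZC3, 1 between ZC2 and ZC3 and 1 between ZC1 and ZC2, and none was lower. Most members were within 1.5-fold across the barcodes.

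The module took 2.92% of UMIs in ZC1, 2.91% in ZC2 and 2.55% in ZC3 macrophages, and Psap was the member with the largest difference in CPM. Psap stood at 3833 CPM in ZC1, 3801 in ZC2 and 2554 in ZC3 (1.5, 1.48 to 1.53, for ZC1 over ZC3, and 1.49 for ZC2 over ZC3), and its ZC1 to ZC3 ratio lay between 1.44 and 1.73 over 16 alternatives, 8 of them past 1.5-fold. Ctss stood at 3745, 3962 and 3160 CPM, Ctsb at 3243, 2829 and 2782, and Ctsz at 1525, 1410 and 1211. Ctsd stood at 1050, 1159 and 773 CPM, and Man2b1 at 329, 385 and 275. Ctsc ran the other way, at 1790, 1994 and 2067 CPM. Atp6v0d2 stood at 20.5, 12.5 and 4.28 CPM, from 95, 66 and 96 UMIs in 23, 11 and 24 cells, with ratios to ZC3 of 4.78 (3.56 to 6.41) and 2.93 (2.11 to 4.05). Under a barcode rule of 2 times the next the latter turned to a log2 ratio of -1.57, with 65 ZC2 macrophages. Ctsk had 39 UMIs in ZC2, 79.5% of them in 1 cell, and 6 in ZC3, and Atp6v0c had 20 UMIs in ZC1, 2 in ZC2 and 32 in ZC3.

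The barcodes also differed in which macrophages they held. Cluster 8, highest in Psap, Ctsd and Atp6v0d2, made up 14.7% of ZC1, 9.71% of ZC2 and 2.10% of ZC3 macrophages, and the cell cycle genes summed to 1310, 1574 and 1842 CPM. The dissociation genes summed to 3046, 2401 and 2338 CPM, and median depths were 27682, 27659 and 34092 UMIs. Within clusters with at least 20 cells of both barcodes, Psap in ZC1 over ZC3 was 1.11 in cluster 1 and 1.21 in cluster 3, and in ZC2 over ZC3 it was 1.00 in cluster 1 and 1.49 in cluster 2. Ctsd in ZC1 over ZC3 was 1.47 in cluster 1 and 1.34 in cluster 3, and in ZC2 over ZC3 it was 1.20 in cluster 1 but 0.919 (0.844 to 0.999) in cluster 2. Atp6v0d2 in ZC1 over ZC3 was at 2.39 (1.35 to 4.18) in cluster 3. In cluster 1 Atp6v0d2 had 9 UMIs in ZC1, 16 in ZC2 and 0 in ZC3, and in cluster 2 it had 0 in ZC2 and 2 in ZC3. In other classes the ZC1 to ZC3 ratio of Psap was 1.54 in intermediates, 1.20 in monocytes and 1.87 in cDC2, and in T cells, where its level is not read as expression, it was 1.78. Other members ran the other way in monocytes, with Cd63 at 0.408 and Ctsb at 0.617, and 14 of 33 ratios there were above 1, beside 56.7% of all genes. In intermediates 21 of 34 were above 1 (47.6% of all genes), in T cells 28 of 32 (48.4%) and in cDC2 24 of 31 (55.7%). In T cells, where several members are read as background, 14 were higher past 1.5-fold, beside 12.8% of genes. In cDC2 11 were, beside 17.0%. A shift upward in ZC1 was thus not particular to macrophages. The dissociation genes were higher in ZC1 than in ZC3 in macrophages, intermediates, monocytes, T cells and cDC2, at 7022 against 6208 CPM in monocytes and 7001 against 4876 in cDC2, and their part in the ratios was not tested.

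**Figure D5:**
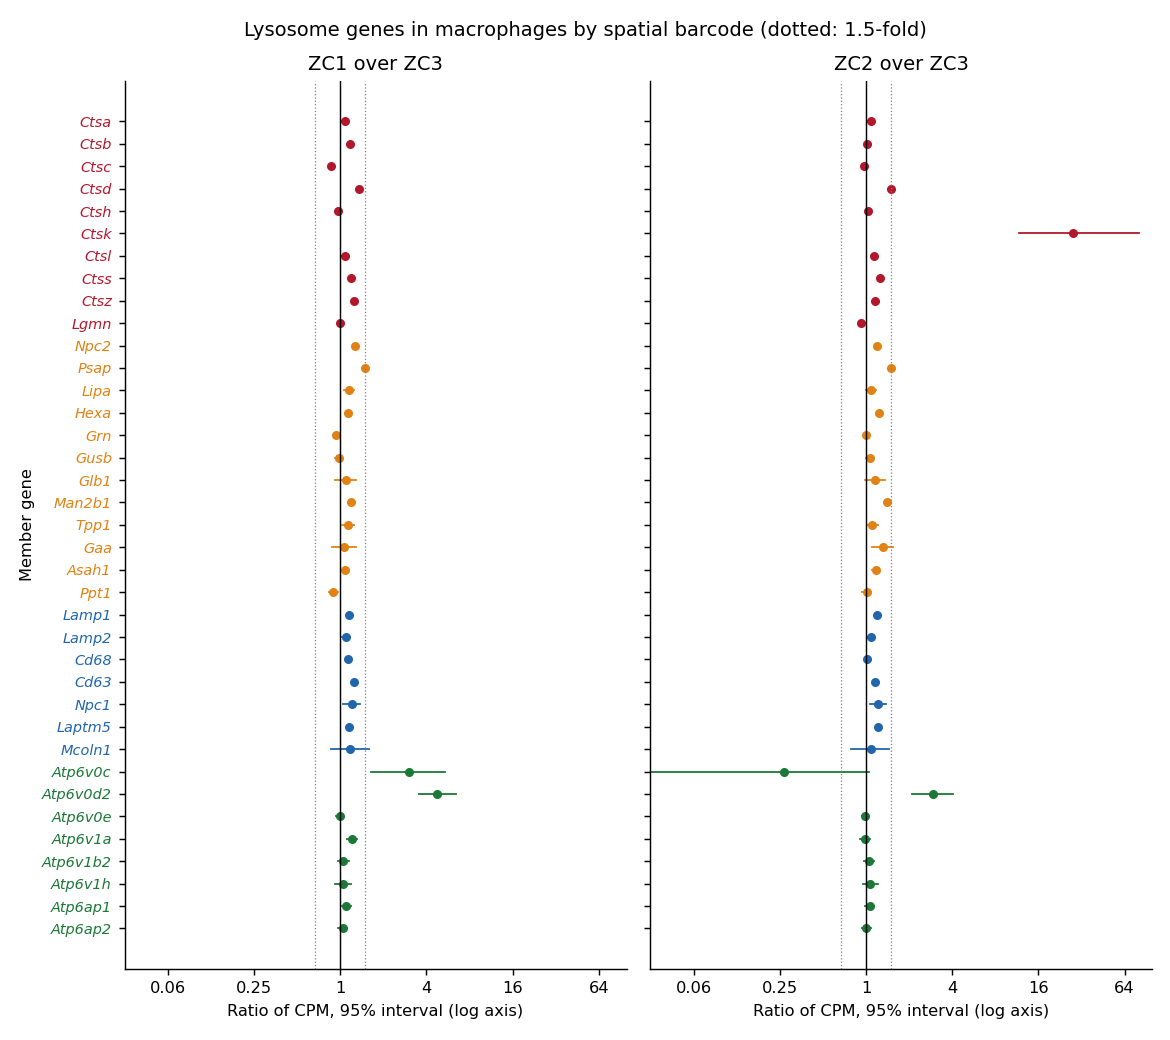
Ratio of CPM in ZC1 (left) and ZC2 (right) macrophages over ZC3 macrophages for each member, with 95% counting intervals (log axis); dotted lines mark 1.5-fold. Most points lie within the dotted lines, Psap and Ctsd sit near the upper one, and Atp6v0d2 lies beyond it in both panels. Ctsk, not compared at left, and Atp6v0c rest on few UMIs, and the lower end of the Atp6v0c interval at right reaches the panel edge.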

How the data were processed

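UMI counts of gene expression and of 3 spatial barcodes were measured in 2 libraries of the same cells. The authors deposited them as 1 unfiltered matrix with named features, per the file headers, and the submitters' processing notes name Cell Ranger 4.0.0 and mm10, with no counting settings. The deposited counts were checked to be whole numbers over 6794880 barcodes and 31055 gene features.

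A barcode was kept as a cell from 1000 UMIs and 500 genes upward if mitochondrial genes gave no more than 10% of its UMIs. Classes came from marker UMIs per 10000 (C1q 30, Ly6c2 and Ccr2 5, T cell genes 8, melanoma genes 8). One of the macrophage genes listed for checking the classes is not reported here and was left out of their sums. No doublet caller was run, and 220 cells past the limits of unlike classes and 89 past none were left out. Counts were summed per class and scaled to CPM, with exact Poisson intervals and, for ratios, exact conditional binomial intervals at 95%. A ratio needed 30 UMIs over both sets and 3 expected in the smaller, and a set at 0 was put at 3 counts. With 1 library no test across samples was made. Macrophages were clustered with Leiden in scanpy 1.11.5 at resolution 1 on 1981 variable genes, without 19 lysosome genes. The code was tested on simulated data.

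The members and the lists beside them were chosen with earlier results of these data known. Named genes are all members and the 2 highest and 2 lowest ratios of each other list. The barcode rule, of at least 30 spatial UMIs and 1.5 times the next relative share, was chosen after the data were seen. Alternatives changed the cell filters, marker limits, classes, averaging, depth, free RNA, scaling, UMI filter, cycling cells, barcode rule and resolution. Promoters came from RefSeq on GRCm38.p6. Scripts ran in Python 3.11.15 with scipy 1.17.1, numpy 2.4.6, matplotlib 3.10.9 and pandas 2.3.3.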

Additional observations from a re-analysis of the deposited data

How the results depend on the processing

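Of 137 counts of members past 1.5-fold under the alternatives, 128 stayed within 1.5 times the reported count. With cycling cells left out, macrophages against intermediates gave 7 members in place of 4 and ZC1 against ZC3 gave 1 in place of 3. ZC2 against ZC3 gave 1 in place of 3 with cells thinned to 1000 UMIs and with at least 100 UMIs over both sets. ZC1 against ZC2 gave 1 in place of 2 with at most 5% mitochondrial UMIs, with cycling cells left out, with marker limits halved and when 100 UMIs over both sets were required. The share of all genes past 1.5-fold changed too. For ZC2 over ZC3 with cells thinned to 1000 UMIs it was 7.64% higher and 14.6% lower, in place of 6.12% and 4.43%. For the other counts that share is not set beside them here. The members' median log2 ratio of ZC1 over ZC2, reported as -0.0095, turned to 0.0083 with marker limits doubled, 0.0039 with the mean of per-cell CPM, 0.022 with free RNA subtracted, 0.023 when ratios were divided by the median of all genes and 0.053 with a spatial barcode at least 2 times the next. Under that last rule the log2 ratio of Atp6v0d2 in ZC2 over ZC3 turned to -1.57, and with Leiden clusters in place of gates the log2 ratio of Ctsk in melanoma cells over macrophages turned to 2.68. At resolution 0.5, 9 members differed by 2-fold over the macrophage clusters in place of 15. The causes were not tested.

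The spatial rules of 10 counts and 2 times the next, and of 5 times the next relative share, left fewer than 20 macrophages for a barcode and gave no value, and neither did melanoma cells with at most 5% mitochondrial UMIs or without cycling cells. No paired analysis was possible because both samples are libraries of the same cells. With 1 library, differences between tumours were not measured.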
